A study of Mus musculus with 12 samples.

Results

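The CDK inhibitors were read as 7 genes, *Cdkn1a*, *Cdkn1b*, *Cdkn1c*, *Cdkn2a*, *Cdkn2b*, *Cdkn2c*, and *Cdkn2d*, chosen by symbol among the 26608 genes listed in the count tables. RNA was sequenced from CD4+ YFP(FOXP3)- T cells, sorted from the spleen pooled with cervical and inguinal lymph nodes of mice 14 weeks old, with 4 libraries per group and 1 library per mouse. The WT group was Foxp3Cre WT mice, and the DKO-moderate and DKO-severe groups were Foxp3-Cre Tet2/3 fl/fl mice, so that the Foxp3-driven Cre was carried by all 3 groups and the floxed *Tet2* and *Tet3* alleles by the DKO groups. The study set moderate apart from severe by the number of splenocytes and lymphocytes in a mouse. Cre follows *Foxp3*, so that the floxed alleles are cut mainly in cells that have at some time expressed it, although the study describes low leaky Cre activity in other blood precursors. The counts cover the whole sorted population, which holds both former Treg cells and conventional T cells, and the share of cells with cut alleles was not measured here.

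CDK inhibitors hold back the kinases that drive the cell cycle. The INK4 proteins (p16, p15, p18, and p19, from *Cdkn2a*, *Cdkn2b*, *Cdkn2c*, and *Cdkn2d*) bind CDK4 and CDK6 and keep them from D-type cyclins, so that RB1 stays unphosphorylated and E2F factors stay bound to it. The Cip/Kip proteins (p21, p27, and p57, from *Cdkn1a*, *Cdkn1b*, and *Cdkn1c*) bind cyclin and CDK complexes as a whole, above all those of CDK2. In T cells p27 is known as the inhibitor that is abundant in resting cells and degraded on activation, p18 as a brake on T cell proliferation and as a gene that E2F factors induce in cycling cells, and p21 as a target of p53 that is also induced by activation.

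Against WT, 4 of the 7 members were higher in DKO-severe and 2 were lower, while 26.6% of the 16035 tested genes were higher and 25.9% were lower (edgeR quasi-likelihood F test, Benjamini-Hochberg adjusted p under 0.05 over all tested genes). *Cdkn1a*, *Cdkn2a*, *Cdkn2b*, and *Cdkn2c* were the ones that rose. *Cdkn1b* and *Cdkn2d*, the most abundant members in every group, fell. *Cdkn1c* did not pass the test. The median log2 fold change of the 7 members was 2.35, the value of *Cdkn2b*, a member with few reads. That of all tested genes was -0.01. In DKO-moderate against WT, 3 members were higher and 1 was lower, beside 12.3% and 4.74% of all tested genes. In DKO-severe against DKO-moderate, 3 were higher and 0 lower by edgeR, beside 9.41% and 10.7%, and DESeq2 called 0 and limma voom 1 lower there, *Cdkn1b*, which edgeR gave an unadjusted p under 0.05. The members' median log2 fold changes in these comparisons were 1.14 (*Cdkn2b*) and 0.99 (*Cdkn2a*), with 0.00 and -0.03 over all tested genes. The comparisons share libraries and are not independent of each other. The CPM did not overlap between the groups for 7 members in DKO-severe against WT (51.9% of tested genes), for 4 in DKO-moderate against WT (24.8%), and for 4 in DKO-severe against DKO-moderate (21.3%).

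**Figure D1:**
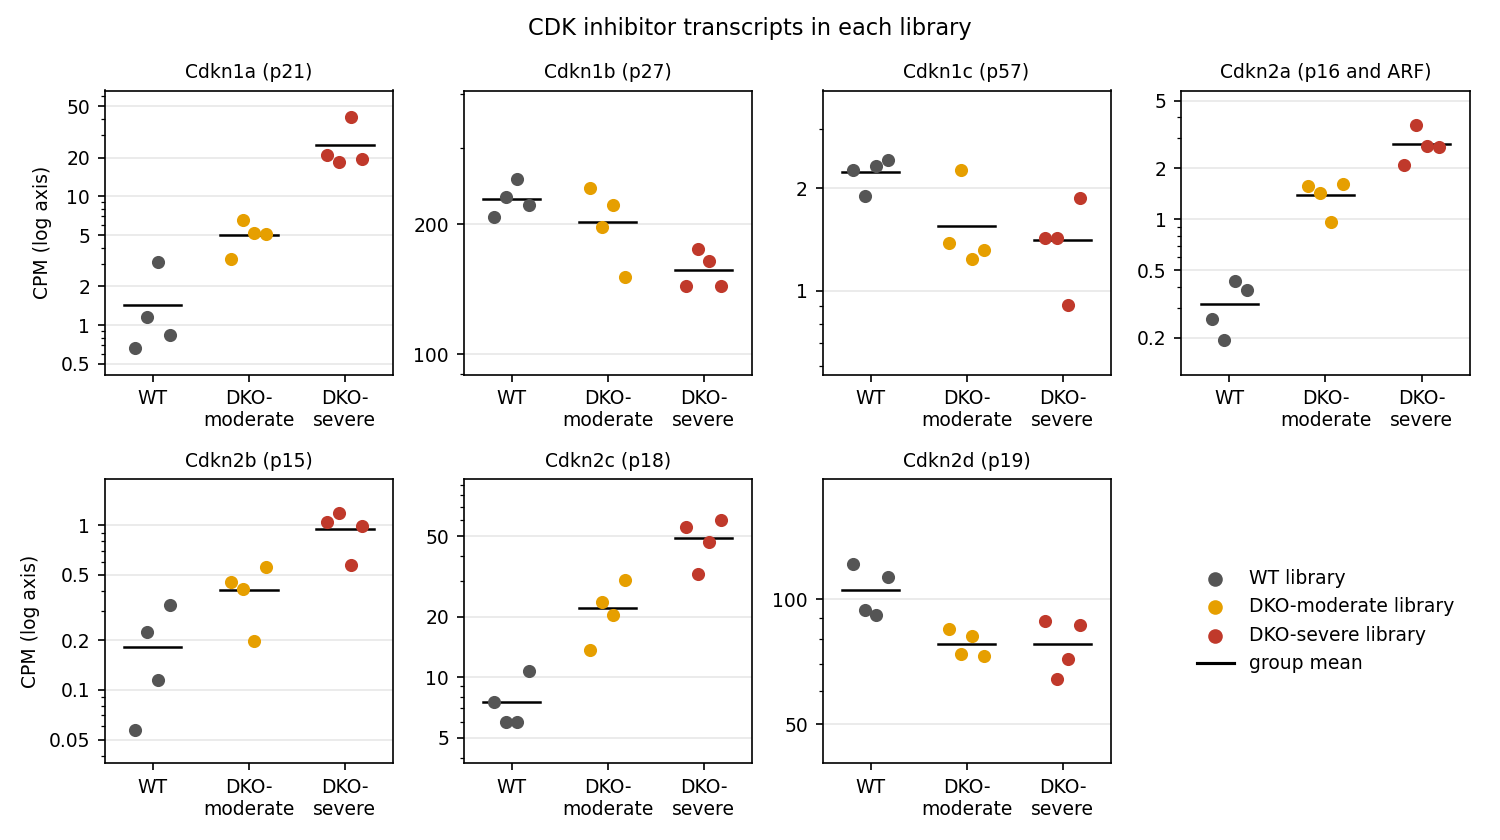
CPM (reads scaled by TMM and library size) of each CDK inhibitor on a log axis, with 1 point per library, 4 libraries per group, and a bar at the group mean. *Cdkn1a*, *Cdkn2a*, and *Cdkn2c* step up from WT to DKO-moderate to DKO-severe with no overlap, *Cdkn1b* is lower in DKO-severe, and *Cdkn2d* is lower in both DKO groups.

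The promoter windows of 4 members are shown because these genes carry the main differences, *Cdkn1a*, *Cdkn2a*, and *Cdkn2c* upwards and *Cdkn1b* downwards. They are RefSeq windows on GRCm38.p6, running from 250 bases before a start site to 50 after it, and 6 of the 7 members matched the table, with 9 windows among them (*Cdkn1c* was not matched). Capitals mark GC boxes (GGGCGG) and E2F-like motifs (TTTNNCGC) on either strand, except in *Cdkn1a*, where they mark a pair of p53 half-sites with the bases between them. No marked motif overlapped another in the printed windows.
*Cdkn1a*, upstream start, + strand, chr17:29090729-29091028: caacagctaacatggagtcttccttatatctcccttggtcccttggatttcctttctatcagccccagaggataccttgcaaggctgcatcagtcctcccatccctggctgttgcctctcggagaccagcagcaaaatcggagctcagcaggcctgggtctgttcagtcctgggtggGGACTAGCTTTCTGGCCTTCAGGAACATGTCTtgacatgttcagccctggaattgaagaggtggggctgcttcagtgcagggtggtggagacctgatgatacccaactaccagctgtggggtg
*Cdkn2a*, start of the p16 transcript, - strand, chr4:89282143-89282442: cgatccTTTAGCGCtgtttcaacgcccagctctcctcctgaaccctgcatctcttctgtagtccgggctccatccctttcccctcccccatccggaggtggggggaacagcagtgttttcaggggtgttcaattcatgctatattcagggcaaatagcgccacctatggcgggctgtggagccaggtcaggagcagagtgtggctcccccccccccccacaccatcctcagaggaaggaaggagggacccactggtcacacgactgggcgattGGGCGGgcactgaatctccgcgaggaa
*Cdkn2a*, start of the ARF transcript, - strand, chr4:89294570-89294869: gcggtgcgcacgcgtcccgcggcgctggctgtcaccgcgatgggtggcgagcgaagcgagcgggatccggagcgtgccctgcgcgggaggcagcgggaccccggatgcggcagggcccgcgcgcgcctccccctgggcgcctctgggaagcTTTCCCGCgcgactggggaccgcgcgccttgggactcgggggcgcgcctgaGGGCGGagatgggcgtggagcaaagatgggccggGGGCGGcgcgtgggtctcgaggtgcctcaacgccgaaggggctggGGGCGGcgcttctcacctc
*Cdkn2c*, upstream start, - strand, chr4:109666707-109667006: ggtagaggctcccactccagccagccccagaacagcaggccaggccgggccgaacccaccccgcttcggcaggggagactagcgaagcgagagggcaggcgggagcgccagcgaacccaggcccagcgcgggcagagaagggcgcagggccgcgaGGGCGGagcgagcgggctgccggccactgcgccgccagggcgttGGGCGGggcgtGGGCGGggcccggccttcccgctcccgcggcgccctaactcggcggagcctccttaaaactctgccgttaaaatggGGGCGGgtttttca
*Cdkn1b*, + strand, chr6:134920151-134920450: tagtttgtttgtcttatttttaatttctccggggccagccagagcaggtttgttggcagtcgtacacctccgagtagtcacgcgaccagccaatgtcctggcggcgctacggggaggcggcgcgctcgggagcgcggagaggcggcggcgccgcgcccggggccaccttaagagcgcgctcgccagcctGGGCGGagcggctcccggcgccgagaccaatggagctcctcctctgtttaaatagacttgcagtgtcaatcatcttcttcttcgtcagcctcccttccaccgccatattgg

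The *Cdkn1a* window held the p53 half-site pair in 32 bases, from 73 to 42 bases before its start site. A half-site was a strict match to RRRCWWGYYY, with R for A or G, W for A or T, and Y for C or T. The bases tgacatgttc, directly after the marked stretch, depart from this pattern only at their first base and were not marked. A pair of strict matches, at most 13 bases apart, was found in 24 of 32851 mouse promoter windows of this length (0.0731%). The second *Cdkn1a* window, at the downstream start, held 2 GC boxes and no p53 half-site. Both *Cdkn2a* windows held 1 E2F-like motif, a motif found in 5.17% of all windows, and none of the other 7 windows did. GC boxes, found in 35.7% of all windows, occurred in 7 of the 9, most often in *Cdkn2d* with 5 and *Cdkn2c* with 4 at its upstream start. The ARF window was 77.0% G and C with 45 CG dinucleotides, and the printed *Cdkn1a* window was 54.7% with 2, against medians of 52.7% and 7.0 over all windows. No member window held the FOXO-like motif TGTTTAC (3.65% of windows), and 1 *Cdkn2c* window held the E-box CACGTG (7.15%). A match is a run of letters and was not tested as a binding site.

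Among the Cip/Kip members, *Cdkn1a* (chr17:29090976-29100727 in GRCm38, + strand, 5 annotated transcripts) showed the largest fold of the family in DKO-severe. Its 4 WT libraries had 0.661, 1.16, 3.10, and 0.847 CPM. The DKO-moderate libraries had 3.24, 6.56, 5.24, and 5.09 CPM, and the DKO-severe libraries 20.9, 18.4, 41.5, and 19.4 CPM. The groups did not overlap, and the highest WT library, replicate 3, was just under the lowest DKO-moderate library. *Cdkn1a* rose 17.3-fold in DKO-severe over WT, from a mean of 1.44 ± 1.13 to 25.0 ± 11 CPM (SD, n = 4 each), with a log2 fold change of 4.11 (SE 0.49, edgeR adjusted p = 4.21e-05). It was also higher in DKO-moderate than in WT, with a log2 fold change of 1.80 (SE 0.46, edgeR adjusted p = 0.0189). Between the DKO groups it differed by 2.32 (SE 0.45, edgeR adjusted p = 0.00669). The call in DKO-moderate against WT was lost without WT replicate 1 (adjusted p = 0.0557), WT replicate 2 (0.0599), WT replicate 4 (0.054), or DKO-moderate replicate 2 (0.0532), and without WT replicate 3 the log2 fold change was 2.5 (adjusted p = 0.0024). WT replicate 3 also had the highest summed CPM of the WT group for B cell markers (249.4 over 10 genes, 6.81 to 15.2 in the other 3 libraries) and for monocyte and macrophage markers (243.1 over 10 genes, 22.6 to 48.3). With terms for neutrophil and B cell genes in the fit, *Cdkn1a* in DKO-moderate over WT had a log2 fold change of 2.29 (edgeR adjusted p = 0.0066), and the part of the monocyte and macrophage genes was not tested.

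*Cdkn1b*, which encodes p27, was the Cip/Kip member with the most reads (chr6:134920401-134925513, + strand). The WT libraries had 207.7, 231.8, 254.8, and 222.1 CPM. The DKO-moderate libraries had 242.3, 197.0, 221.2, and 150.7 CPM, and the DKO-severe libraries 143.6, 175.0, 164.6, and 143.8 CPM. All DKO-severe libraries were below all WT libraries, while DKO-moderate spread over both ranges, with replicate 4 among the DKO-severe values. The mean fell from 229.1 ± 19.8 CPM in WT to 156.8 ± 15.7 CPM in DKO-severe, or 68.4% of WT, with a log2 fold change of -0.55 (SE 0.13, edgeR adjusted p = 0.00465). In DKO-moderate the mean was 202.8 ± 39.4 CPM, and the log2 fold change of -0.18 did not pass the test (SE 0.13, edgeR adjusted p = 0.386). Between the DKO groups the log2 fold change was -0.37 (SE 0.13, edgeR adjusted p = 0.0677), and it passed the test without DKO-moderate replicate 4 (-0.45, adjusted p = 0.0127). In bulk RNA, fewer cells with a transcript and less of it per cell cannot be told apart.

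*Cdkn1c*, which encodes p57 and is an imprinted gene, was low in these cells (chr7:143458339-143461050, - strand). It had 2.27, 1.90, 2.33, and 2.43 CPM in WT, 1.38, 2.27, 1.24, and 1.32 CPM in DKO-moderate, and 1.43, 1.43, 0.905, and 1.87 CPM in DKO-severe. The DKO-severe libraries all lay below the WT libraries, although by little, and DKO-moderate replicate 2 lay at the WT level. None of the 3 differences passed the test, with log2 fold changes of -0.67 in DKO-severe against WT (SE 0.29, edgeR adjusted p = 0.0698), -0.52 for DKO-moderate over WT (SE 0.29, edgeR adjusted p = 0.229), and -0.14 between the DKO groups (SE 0.29, edgeR adjusted p = 0.752). The first of these passed with limma voom (-0.77, adjusted p = 0.0177), and also by edgeR once DKO-moderate replicate 2 was left out (-0.67, adjusted p = 0.0492).

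Among the INK4 members, *Cdkn2c*, which encodes p18, had the highest level of those that rose (chr4:109660876-109667189, - strand). Its CPM were 7.50, 6.0, 6.01, and 10.7 in WT. They were 13.6, 23.7, 20.3, and 30.3 in DKO-moderate and 55.8, 32.6, 46.8, and 60.1 in DKO-severe. Each group lay wholly above the one before, and the highest DKO-moderate library, replicate 4, was just under the lowest DKO-severe library, replicate 2. The log2 fold changes of *Cdkn2c* were 2.69 in DKO-severe against WT (SE 0.28, edgeR adjusted p = 1.84e-05), 1.54 for DKO-moderate over WT (SE 0.27, edgeR adjusted p = 0.00293), and 1.15 between the DKO groups (SE 0.27, edgeR adjusted p = 0.0127). All 3 calls held when any 1 library was left out. With terms for neutrophil and B cell genes in the fit, the call between the DKO groups was lost (edgeR adjusted p = 0.14). The log2 fold change there was 1.17, beside 1.15 without the terms. Neutrophil transcripts were highest in DKO-severe, so that fit cannot separate the neutrophil term from the group. Among the DKO-severe libraries *Cdkn2c* and the summed CPM of 20 proliferation genes were both highest in replicate 4 (60.1 and 3246.6 CPM) and both lowest in replicate 2 (32.6 and 1756.1 CPM), and in DKO-moderate both were highest in replicate 4 (30.3 and 1820.8 CPM) and lowest in replicate 1 (13.6 and 1259.3 CPM).

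*Cdkn2a* makes 2 proteins from 2 first exons and shared later exons in different reading frames, p16 of the INK4 family and ARF, an inhibitor of MDM2 that stabilizes p53 (chr4:89274471-89294653, - strand). Counts per gene cannot separate the p16 and ARF transcripts. *Cdkn2a* had 0.259, 0.194, 0.431, and 0.383 CPM in WT, from 6 to 15 reads a library. It had 1.57, 1.42, 0.969, and 1.62 CPM in DKO-moderate (39 to 61 reads) and 2.08, 3.59, 2.69, and 2.68 CPM in DKO-severe (64 to 118 reads). The 3 groups were fully separated, at low levels throughout. The log2 fold changes of *Cdkn2a* were 3.11 in DKO-severe against WT (SE 0.34, edgeR adjusted p = 2.26e-05) and 2.12 for DKO-moderate over WT (SE 0.33, edgeR adjusted p = 0.00134), and both calls held when any 1 library was left out. Between the DKO groups the log2 fold change was 0.99 (SE 0.31, edgeR adjusted p = 0.0405), and this call was lost without any 1 of DKO-moderate replicates 1 (adjusted p = 0.0778), 2 (0.0608), or 3 (0.111), or of DKO-severe replicates 2 (0.0789), 3 (0.0674), or 4 (0.0657).

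*Cdkn2b*, which encodes p15, lies 11.6 kb from *Cdkn2a* (chr4:89306299-89311039, - strand) and had the lowest level of the family. It had 0.0575, 0.226, 0.115, and 0.328 CPM in WT (2 to 12 reads a library), 0.452, 0.410, 0.199, and 0.556 CPM in DKO-moderate (8 to 21 reads), and 1.04, 1.19, 0.571, and 0.981 CPM in DKO-severe (24 to 41 reads). DKO-severe lay above both other groups, while DKO-moderate overlapped WT. *Cdkn2b* rose in DKO-severe against WT with a log2 fold change of 2.35 (SE 0.52, edgeR adjusted p = 0.00259). Its log2 fold changes of 1.14 in DKO-moderate against WT (SE 0.52, edgeR adjusted p = 0.152) and 1.22 between the DKO groups (SE 0.49, edgeR adjusted p = 0.0967) did not pass. With DESeq2 the latter was called (1.30, adjusted p = 0.0451), as it was with limma voom (1.34, adjusted p = 0.0448).

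*Cdkn2d*, which encodes p19, was the INK4 member with the most reads (chr9:21288410-21291407, - strand). It had 121.9, 94.4, 91.7, and 113.3 CPM in WT, 84.7, 73.8, 81.4, and 73.0 CPM in DKO-moderate, and 88.8, 64.4, 71.8, and 86.6 CPM in DKO-severe. Both DKO groups lay below WT and overlapped each other. Relative to WT, DKO-severe had a log2 fold change of -0.43 (SE 0.12, edgeR adjusted p = 0.0102), and DKO-moderate likewise one of -0.43 (SE 0.12, edgeR adjusted p = 0.0309). Between the DKO groups it was -0.01 (SE 0.12, edgeR adjusted p = 0.977), and its sign depended on the scaling. The call in DKO-moderate was lost without WT replicate 1 (adjusted p = 0.0983), WT replicate 4 (0.0796), DKO-moderate replicate 2 (0.0852), or DKO-moderate replicate 4 (0.0596). With library size as the only scaling, which moved the median of all tested genes in DKO-severe against WT to a log2 fold change of 0.178, *Cdkn2d* had -0.25 (adjusted p = 0.0858) in that comparison.

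**Figure D2:**
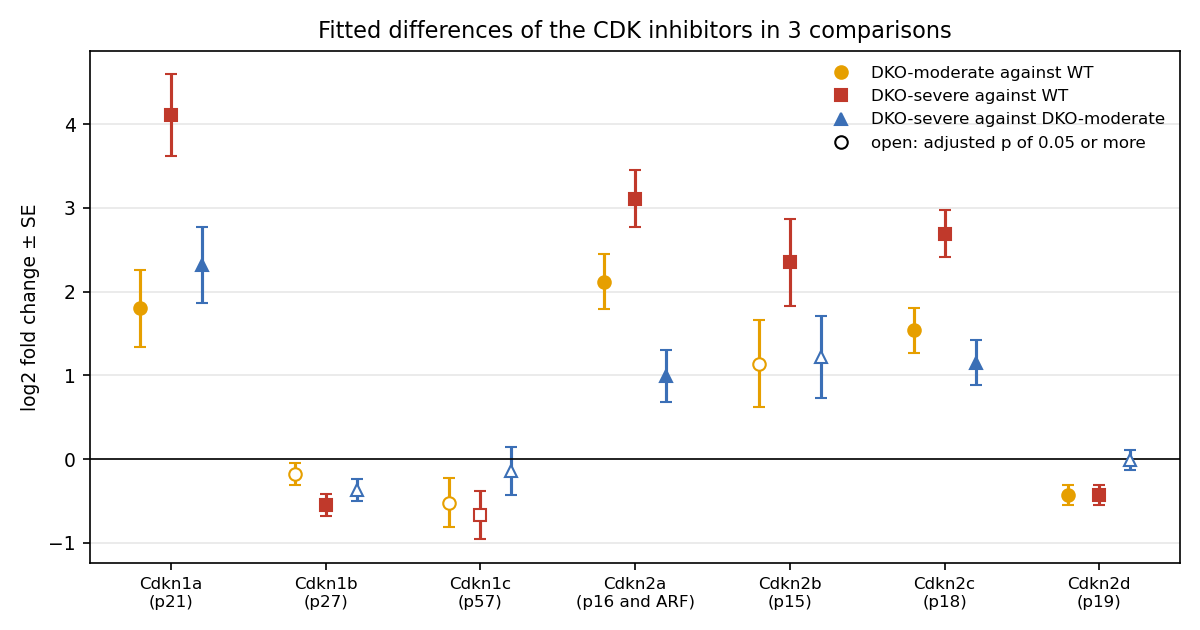
Log2 fold change with its SE for the 7 members in the 3 comparisons, where filled symbols passed the edgeR test and open symbols did not. *Cdkn1a* has the largest difference in DKO-severe against WT (4.11), and *Cdkn2d* shows the same difference of -0.43 in both DKO groups.

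The DKO-moderate change was set beside the DKO-severe change for each member. The DKO-moderate log2 fold change was 98.6% of the DKO-severe one for *Cdkn2d*, 78.7% for *Cdkn1c*, 68.3% for *Cdkn2a*, 57.2% for *Cdkn2c*, 48.3% for *Cdkn2b*, 43.7% for *Cdkn1a*, and 32.2% for *Cdkn1b*. Both changes are measured against the same WT libraries, and the differences between these shares were not tested. *Cdkn1c* passed the test in neither comparison, and *Cdkn1b* and *Cdkn2b* did not pass in DKO-moderate. For *Cdkn1a*, 7.19% of all tested genes had a log2 fold change at least as high in DKO-severe against WT, and for *Cdkn2a* 10.4%, *Cdkn2c* 12.6%, and *Cdkn2b* 14.3%. On the lower side, 21.7% of tested genes had a change at least as low as *Cdkn1b* and 26.1% as *Cdkn2d*.

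Levels were compared between members only per length, as CPM per kb of annotated exon. In WT, *Cdkn2d* was highest with a mean of 66.9 CPM per kb, followed by *Cdkn1b* with 50.3, *Cdkn2c* with 2.81, *Cdkn1c* with 1.1, *Cdkn1a* with 0.406, *Cdkn2a* with 0.27, and *Cdkn2b* with 0.131. The ranges of *Cdkn1a* and *Cdkn2a*, and of *Cdkn2a* and *Cdkn2b*, overlapped in WT, and the other neighbours in this order did not. In DKO-severe the order was *Cdkn2d* (49.5 CPM per kb), *Cdkn1b* (34.4), *Cdkn2c* (18.2), *Cdkn1a* (7.05), *Cdkn2a* (2.35), *Cdkn1c* (0.69), and *Cdkn2b* (0.68), and of the neighbours the last pair alone overlapped. *Cdkn1c* thus passed from the fourth to the sixth place, with *Cdkn1a* and *Cdkn2a* above it. In DKO-moderate *Cdkn2d* (49.7 CPM per kb) overlapped *Cdkn1b* (44.6), and *Cdkn1a* (1.42) overlapped *Cdkn2a* (1.19), which overlapped *Cdkn1c* (0.762), while *Cdkn2c* (8.18) and *Cdkn2b* (0.291) stood clear of their neighbours.

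The length-scaled sum of the 7 members came to 122.0 ± 6.18 CPM per kb in WT, to 106.1 ± 9.07 in DKO-moderate, and to 112.9 ± 7.96 in DKO-severe (SD, n = 4 each), with ranges that overlapped between neighbouring groups. Its make-up differed between the groups, as described here without a test. *Cdkn1b* and *Cdkn2d* together took 96.1% ± 0.639 of the sum in WT, then 88.6% ± 3.83 in DKO-moderate and 74.5% ± 2.85 in DKO-severe. *Cdkn1a* and *Cdkn2c* together took 2.63% ± 0.497, 9.27% ± 3.48, and 22.2% ± 3.61. For both of these shares the 3 groups did not overlap. *Cdkn2c* alone reached 16% ± 3.05 in DKO-severe and *Cdkn1a* 6.24% ± 2.68, and *Cdkn2a* (2.12% ± 0.644) and *Cdkn2b* (0.608% ± 0.198) stayed small. For the split between the subfamilies, the Cip/Kip members were at 42.7% ± 5.43 for WT, 43.8% ± 4.55 for DKO-moderate, and 37.6% ± 6.28 for DKO-severe, ranges that overlapped.

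**Figure D3:**
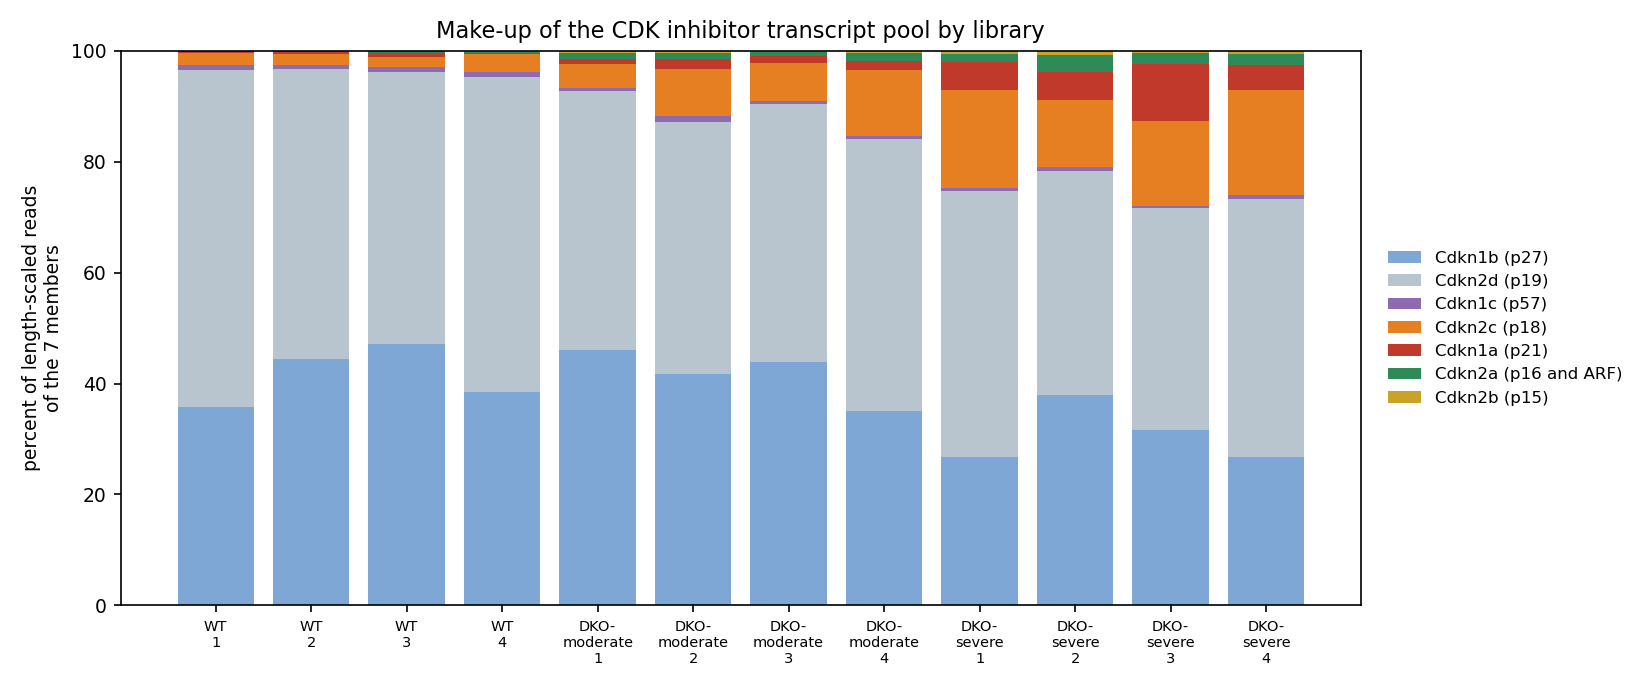
Share of each member in the length-scaled reads of the 7 CDK inhibitors, in percent, with 1 stacked bar per library. The bars of *Cdkn1b* and *Cdkn2d* shrink from 96.1% of the pool in WT to 74.5% in DKO-severe as those of *Cdkn2c* and *Cdkn1a* widen.

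The kinases and cyclins that the members bind were next compared. Of 12 cyclins and CDKs, 7 were higher and 0 lower in DKO-severe against WT by edgeR, beside 26.6% and 25.9% of all tested genes. In DKO-moderate 6 were higher, beside 12.3% of all tested genes. In DKO-severe against WT, *Ccnd3* was lower by an unadjusted p under 0.05 and by limma voom, and DESeq2 called 0 lower. Of the direct targets of the INK4 proteins, *Cdk6* rose from 7.72 ± 1.44 to 36.6 ± 3.74 CPM (log2 fold change 2.24, SE 0.23, edgeR adjusted p = 1.65e-05), while *Cdk4* had 123.2 ± 7.87 and 151.2 ± 17.3 CPM (0.30, SE 0.12, edgeR adjusted p = 0.0584). The D-type cyclins *Ccnd2* (log2 fold change 0.22, edgeR adjusted p = 0.264) and *Ccnd3* (-0.32, 0.0678) did not pass in this comparison. *Cdk2*, the main target of p21 and p27, had 53.8 ± 2.21 CPM in WT and 60.0 ± 7.02 CPM in DKO-severe (0.16, edgeR adjusted p = 0.17). The largest rises of this list were in *Cdk1* (3.47), *Ccna2* (3.42), *Ccne2* (3.17), and *Ccnb1* (3.08), which act from the entry into S phase to mitosis.

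Downstream of the inhibitors, 7 of 13 pocket protein, E2F, and DP genes were higher in DKO-severe against WT by edgeR, and 0 were lower. Of all tested genes, 26.6% were higher and 25.9% lower. The count of lower genes in the list was also 0 at an unadjusted p under 0.05, by DESeq2, or by limma voom. *E2f1*, an activator of S phase genes, rose from 4.79 ± 0.705 to 19.5 ± 4.84 CPM (log2 fold change 2.03, SE 0.26, edgeR adjusted p = 6.74e-05). The repressor genes *E2f8* (3.47) and *E2f7* (3.32) rose most, and *E2f2* rose by a log2 fold change of 1.61. *Rb1*, whose protein the CDKs inactivate, had 80.7 ± 6.77 CPM in WT and 82.6 ± 7.45 CPM in DKO-severe (0.03, edgeR adjusted p = 0.853). Of 20 proliferation genes, 19 were higher in DKO-severe and 13 in DKO-moderate against WT, beside 26.6% and 12.3% of all tested genes. *Mki67* rose from 31.9 ± 12.6 to 89.0 ± 15.6 and 299.3 ± 112.2 CPM. *Cdkn1a*, *Cdkn2a*, and *Cdkn2c* thus rose in the same groups as many cell cycle transcripts. By *Cdkn2c*, the DKO-severe libraries had the same order as by the sum of the 20 proliferation genes. By *Cdkn1a* or *Cdkn2a* they did not. Within DKO-severe, *Cdkn2a* was highest in replicate 2 (3.59 CPM), where the 20 proliferation genes had their lowest sum (1756.1 CPM). *Cdkn1a* was highest in replicate 3 (41.5 CPM, with a sum of 2325.5). In replicate 4, where the sum was highest (3246.6), *Cdkn1a* had 19.4 CPM. How many of the cells were in cycle was not measured by these counts.

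Of the 6 genes around the ubiquitin ligase that degrades p27, 3 were higher and 1 lower in DKO-severe against WT. Of all tested genes, 26.6% were higher and 25.9% lower there. *Skp2*, its F-box subunit, rose from 3.74 ± 1.34 to 8.43 ± 0.675 CPM (log2 fold change 1.17, edgeR adjusted p = 0.00102), and *Cks1b*, its cofactor for p27, from 8.2 ± 0.626 to 35.4 ± 10.8 CPM (2.11, edgeR adjusted p = 0.000161). *Cul1* was higher (0.35) and *Skp1a* lower (-0.29) by less. *Foxo1*, a transcription factor known to activate *Cdkn1b*, fell from 510.4 ± 52.4 CPM in WT to 292.1 ± 57.3 in DKO-moderate and 175.0 ± 16.8 in DKO-severe (log2 fold change -1.54, edgeR adjusted p = 8.67e-06, in the latter). *Foxo3* (-1.43) fell too. Of the 20 other known regulators of the members as a list, 2 were higher and 11 lower in DKO-severe, beside the same 26.6% and 25.9% of all tested genes. Their median log2 fold change was -0.64. *Klf6* (-1.06) was among the lower genes, *Klf4* (1.95) was higher, *Klf2* had -0.45 (edgeR adjusted p = 0.106), and *Myc*, which represses *Cdkn1a* and *Cdkn2b*, fell from 67.0 ± 3.2 to 40.3 ± 6.82 CPM (-0.73, edgeR adjusted p = 0.00413).

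The genes of the p53 pathway, to which *Cdkn1a* belongs as a target and ARF as an activator, are given beside all tested genes, of which 26.6% were higher and 25.9% lower in DKO-severe against WT. Of the 20 genes, 9 were higher and 7 lower there, with a median log2 fold change of 0.00. The pro-apoptotic *Pmaip1* rose from 4.7 to 75.2 CPM (log2 fold change 4.00) and *Phlda3* from 1.52 to 12.8 CPM (3.08), whereas *Plk2* (-2.01) and *Sesn1* (-1.72) fell. *Trp53*, which encodes p53, had 166.2 ± 10.1 CPM in WT and 139.6 ± 11.6 in DKO-severe (-0.25, edgeR adjusted p = 0.0706), and *Mdm2*, a p53 target that degrades p53, had 122.4 ± 2.91 and 110.3 ± 4.88 CPM (-0.15, edgeR adjusted p = 0.123). Of 18 Polycomb genes, a group known to silence *Cdkn2a* and *Cdkn2b*, 5 were higher and 7 lower, and among the latter was *Kdm6b* (-0.46), which encodes a demethylase that removes the Polycomb mark. *Ezh2*, the H3K27 methyltransferase, rose from 48.4 ± 2.66 to 74.1 ± 3.8 and 110.2 ± 19.1 CPM (log2 fold change 1.19 in DKO-severe, edgeR adjusted p = 9.72e-06). *Bmi1* was slightly higher (0.31, edgeR adjusted p = 0.0271), and *Pcgf2* (1.87) and *Cbx6* (1.11) were higher. Genes of Polycomb repressors were also among the 7 lower ones, including *Cbx8* (-0.65), *Cbx7* (-0.45), *Ring1* (-0.34), *Rnf2* (-0.32), and *Ezh1* (-0.23).

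**Figure D4:**
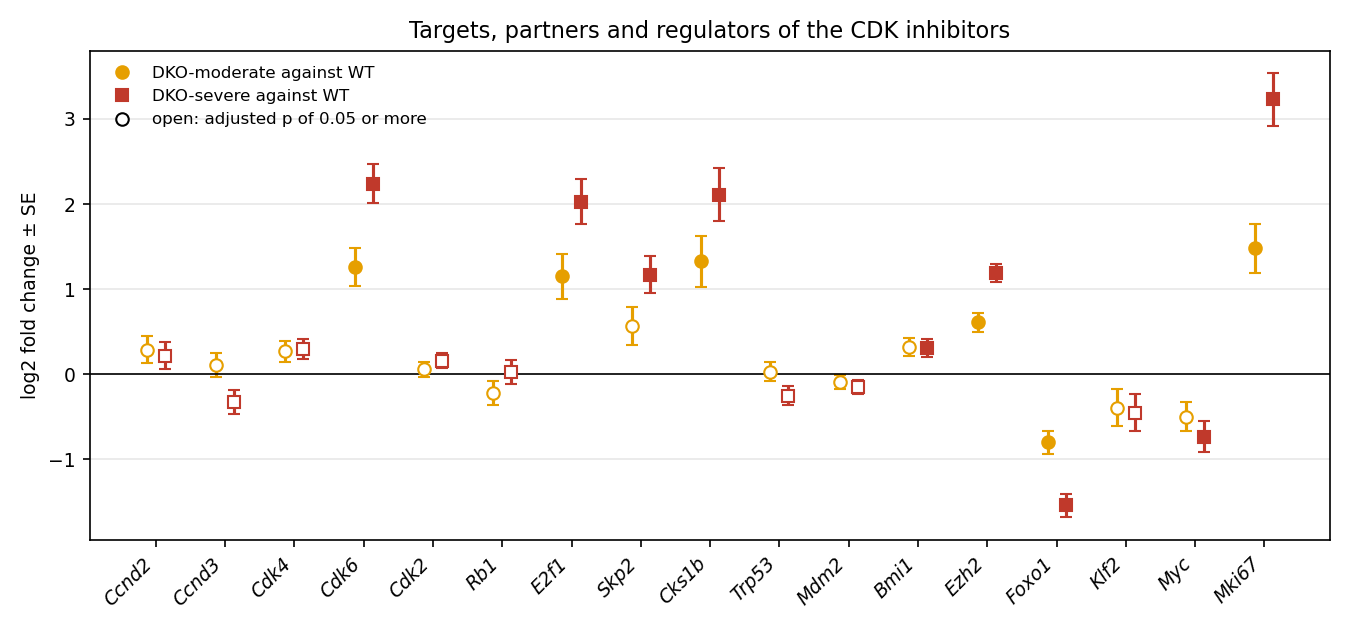
Log2 fold change with its SE against WT for targets, partners, and regulators of the CDK inhibitors in DKO-moderate and DKO-severe, with open symbols for genes that did not pass the edgeR test. *Cdk6*, *E2f1*, *Cks1b*, *Ezh2*, and *Mki67* are higher and *Foxo1* is lower in both DKO groups, while *Cdk4*, *Cdk2*, *Rb1*, and *Trp53* stay within 0.30 of 0.

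The nearest protein-coding genes beside the members were compared in DKO-severe against WT, where 26.6% of all tested genes were higher and 25.9% lower. Some were called in the direction of the member beside them, and others were not. *Cdkn2a* and *Cdkn2b* are neighbours of each other, and both rose (log2 fold changes 3.11 and 2.35). *Mtap*, on the far side of *Cdkn2a* from *Cdkn2b*, was lower in DKO-severe against WT (log2 fold change -0.46, edgeR adjusted p = 0.00147), and *Dmrta1*, beyond *Cdkn2b*, had 0.04 (edgeR adjusted p = 0.961). *Srsf3*, on the lower-coordinate side of *Cdkn1a*, had -0.14 (edgeR adjusted p = 0.261), and *Faf1*, 9.4 kb from *Cdkn2c*, had -0.22 (edgeR adjusted p = 0.0762). Beside *Cdkn2d*, *Kri1* at 0.4 kb (-0.33, edgeR adjusted p = 0.00507) and *Ap1m2* at 2.9 kb (-1.63, edgeR adjusted p = 0.00147) were both lower, as *Cdkn2d* itself was. Next to *Cdkn1b*, *Gpr19* did not pass (0.23, edgeR adjusted p = 0.359) and *Apold1* was higher, with 0.208 CPM in WT and 1.04 in DKO-severe (edgeR adjusted p = 0.00119). In the imprinted region of *Cdkn1c*, *Slc22a18* went from 2 reads over the 4 WT libraries to 99 over the 4 DKO-severe libraries (edgeR adjusted p = 0.00061), and *Kcnq1* had 1 and 21 reads. *Rab44*, beside *Cdkn1a*, had 7 and 187 reads (edgeR adjusted p = 0.0269), with overlapping groups. Of these reads, 1 WT library held all 7 and 1 DKO-severe library held 123.

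Likeness of pattern was described by the correlation of log2 CPM, centred within each group, over the 12 libraries and 9995 genes with a mean of at least 5 CPM. The libraries share depth and cell make-up, so that these values describe how libraries of 1 group vary together. For each member the 3 genes with the highest r are named, picked from all 9995, and no r was tested. *Cdkn1b* was most like *Zbtb44* (r = 0.979), *Slc35e1* (0.979), and *Aff4* (0.976). *Cdkn2c* was most like *Chst14* (0.965), *Med16* (0.954), and *Cpt2* (0.946), *Cdkn2d* was most like *Iars2* (0.946), *Atpaf1* (0.933), and *Vps4b* (0.919), and *Cdkn1a* was most like *Cadm1* (0.873), *Creg1* (0.859), and *Dnase1l3* (0.850). The other 3 members were below 5 CPM on average and were not compared.

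The libraries had 29254260 to 42133536 reads on genes. *Tet3* was lower in DKO-severe (96.0 ± 6.37 CPM) than in WT (195.3 ± 19.6 CPM, edgeR adjusted p = 0.000859) and *Tet2* was not (60.7 ± 4.47 and 52.0 ± 8.05 CPM, edgeR adjusted p = 0.234), in tables that count reads over whole genes and do not show the deleted exons. *Cd4* was at 864.0 CPM or more in every library, and *Foxp3* at 3.1 CPM or less. The calls of the cell type lists below stand beside 26.6% of all tested genes higher and 25.9% lower in DKO-severe against WT. All 12 neutrophil markers were higher in DKO-severe against WT. Their summed CPM was 2267.5, 834.5, 24.0, and 10.6 in the 4 DKO-severe libraries and at most 8.69 in the other 8. *Cdkn1a* was 20.9, 18.4, 41.5, and 19.4 CPM and *Cdkn2c* 55.8, 32.6, 46.8, and 60.1 CPM in those 4 libraries in the same order. Of the other lists, B cell markers summed to 70.5 to 416.7 CPM in DKO-severe, 21.6 to 47.5 in DKO-moderate, and 6.81 to 249.4 in WT, with 1 of 10 genes called higher in DKO-severe. Monocyte and macrophage markers summed to 160.6 to 612.6, 68.0 to 143.2, and 22.6 to 243.1 CPM (3 of 10 higher), and plasma cell markers to 200.1 to 366.0, 88.0 to 135.6, and 61.1 to 162.2 CPM (3 of 7 higher). Naive T cell markers fell from a range of 5316.0 to 6009.9 CPM in WT to 1816.2 to 2466.5 in DKO-severe (7 of 8 lower), and Tfh markers rose from 384.5 to 608.9 to 2223.8 to 3179.1 CPM (9 of 10 higher). Erythroid markers were called higher in 2 of 6 genes and CD8 T cell markers lower in 1 of 2, and of 7 general T cell genes 2 were higher and 2 lower. With terms for neutrophil and B cell genes in the fit, *Cdkn1a* (log2 fold change 4.74, edgeR adjusted p = 0.000993), *Cdkn2a* (3.20, 0.00217), and *Cdkn2c* (2.62, 0.00249) stayed higher in DKO-severe against WT. The calls of *Cdkn2b* (1.76, 0.168), *Cdkn1b* (-0.39, 0.254), and *Cdkn2d* (-0.41, 0.169) were lost. Their log2 fold changes without the terms were 2.35, -0.55, and -0.43. Over all tested genes 3134 were called with the terms and 8428 without. Every DKO-severe library had a higher neutrophil sum than the other 8, so this fit cannot separate the neutrophil term from the group. The part of the plasma cell, monocyte and macrophage, naive T cell, and Tfh genes in the members' differences was not tested.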

How the data were processed

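Counts of 12 libraries were analysed, with 1 library per mouse, so that p-values measure the spread between mice. The authors made directional libraries, aligned reads to mm10 with STAR 2.7.11, keeping uniquely placed reads, and deposited raw counts per gene from HTSeq, counted by strand. The annotation behind them was not given in the sources used here. Records assigned to no gene (18.53% to 23.73% of a library) were left out. Genes with at least 10 reads over the libraries of a condition (16035) were TMM-scaled, as were the CPM, and fitted over the 3 groups with edgeR 4.0.16 in R 4.3.3 (quasi-likelihood F test, Benjamini-Hochberg adjustment, threshold 0.05). SE was taken as the log2 fold change over the square root of F. The alternatives included DESeq2 1.42.0 and limma 3.58.1, and all 3 tools were tested on simulated data. Between libraries of a group the chi-square per degree of freedom was 21.6 or more, so none was a copy. Coordinates and exon lengths came from GENCODE M21 on GRCm38, where 22468 of 26608 genes matched by symbol and 2094 by an older one. The members and lists were chosen with earlier results of these data known. Named genes were the members, their direct partners and neighbours, and from each list up to 4 called genes with the largest change in DKO-severe against WT that reached a mean of 5 CPM. Further lower genes of the Polycomb list were named beside these. A result that this rule would name is not reported here. Single-cell, methylation, and cytometry data were not analysed here.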

Additional observations from a re-analysis of the deposited data

Results flagged for a closer look

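Of 21 sets of 4 libraries (7 members in 3 groups), 2 had a library that stood apart from the others by Dixon's ratio, the gap to the nearest library over the range of the group, at its 95% critical value. Chance alone gives about 1 such library in 20 groups. For *Cdkn1a* in DKO-severe the ratio was 0.889, from replicate 3 with 41.5 CPM beside 18.4 to 20.9 CPM in the other 3. Replicate 3 was also the DKO-severe library without Y-linked transcripts (0.571 summed CPM over 4 genes, against 369.8 to 437.8). With a term for Y-linked genes in the fit, the log2 fold change of *Cdkn1a* in DKO-severe against WT was 4.05 (edgeR adjusted p = 6.69e-05), beside 4.11 without the term. Without replicate 3 the log2 fold change of *Cdkn1a* was 3.78 against WT (edgeR adjusted p = 0.000134) and 2.0 against DKO-moderate (edgeR adjusted p = 0.0191). For *Cdkn1c* in DKO-moderate the ratio was 0.864, from replicate 2 with 2.27 CPM beside 1.24 to 1.38 CPM in the others. Without it the log2 fold change of *Cdkn1c* in DKO-moderate against WT was -0.76 and still did not pass (edgeR adjusted p = 0.112). DKO-moderate replicate 2 also lacked Y-linked transcripts (0 summed CPM), as did WT replicate 2 (0) and DKO-moderate replicate 4 (0.0265).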

How the results depend on the processing

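Of 483 values of the members and of the counts of calls set beside the edgeR fit, 435 kept their direction and their side of the threshold, or for counts stayed within 1.5 times. With terms for neutrophil and B cell genes, 3 members and 3134 genes were called in DKO-severe against WT, where the edgeR fit called 6 and 8428, and 1 and 182 in DKO-severe against DKO-moderate, where it called 3 and 3217. At an adjusted p under 0.01 the counts were 2 and 1142 in DKO-moderate against WT (4 and 2734 at 0.05) and 1 and 926 between the DKO groups. limma voom with quality weights called 5 and 6126 there. Leaving out 1 library at a time gave 6 to 7 members and 7253 to 9006 genes in DKO-severe against WT, 2 to 4 and 1616 to 2920 in DKO-moderate against WT, and 2 to 4 and 1646 to 3670 between the DKO groups. The log2 fold change between the DKO groups changed sign for *Cdkn1c* without 1 library (-0.27 to 0.10) and for *Cdkn2d* (-0.07 to 0.11), and for *Cdkn2d* also with DESeq2 (0.07), its size factors in edgeR (0.07), library size alone (0.10), filterByExpr (0.01), only both groups' libraries (0.01), and the neutrophil and B cell terms (0.06). None of these passed a test, and the cause was not tested. The share of calls that were higher in DKO-severe against WT was 50.7%, and 66.5% with library size alone. Between the DKO groups it was 46.9%, 59.6% with DESeq2's size factors, and 64.9% with library size alone.

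The replicate numbers were not treated as pairs. The within-group deviations of libraries with the same number had correlations of -0.291 to 0.282 (3 of 12 above 0.1). For different numbers they were -0.395 to 0.486 (15 of 36 above 0.1). So few libraries per group cannot exclude pairing. With the number as a replicate block, 6, 4, and 2 members were called in the 3 comparisons, the call lost being *Cdkn2a* between the DKO groups (0.98, adjusted p = 0.0876), and 7794, 2201, and 2321 genes. Depth limited *Cdkn2a* and *Cdkn2b* most, which rested on as few as 6 and 2 reads in a WT library, and counts per gene could not separate p16 from ARF.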
